A study of Mus musculus with 14 samples.

Results

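How far running muscle of an FSHD model lay from untrained healthy muscle was examined in the triceps of 7 male mice, out of 14 mice in the series. The 4 FLExDUX4 running mice (tags 6773, 6784, 6787 and 6796, called runners 1 to 4) had access to a voluntary running wheel for 6 weeks. The 3 WT control mice (tags 102, 6795 and 6902, called controls 1 to 3) were littermates kept without running. The labels' genotype and running condition define both groups. The other 7 mice, 4 WT runners and 3 FLExDUX4 controls, were used for the spread between mice and for side comparisons. Genotype and running both differed between runners and controls, so their parts in a difference cannot be told apart within this comparison. Age, running distance and transgene dose are not given in the sources used here, and the labels name no Cre driver and no inducing agent for any group.

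Facioscapulohumeral muscular dystrophy (FSHD) is caused by misexpression of the transcription factor DUX4, which is silent in healthy adult muscle. FLExDUX4 mice carry a human DUX4 transgene in an orientation that Cre recombinase can invert, and without Cre they are known for a low leaky expression. Mouse limb muscle is built of fast fibres, which use the myosins Myh4, Myh1 and Myh2 in order of decreasing speed, and slow fibres, which use Myh7. Myh2 and Myh7 fibres hold many mitochondria, much myoglobin and many capillaries, and endurance training is known to move muscle towards them.

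RNA was read by 3′ tag counting, in which a gene's count stands for its transcripts without regard to length, and levels below are CPM, gene counts scaled to a common library total. The runners' libraries held 3475940 to 6757914 counts and the controls' 3315921 to 4731380. Before the TMM factor, 1 CPM was 3.27 to 7.0 reads over all 14 libraries. Of 52550 genes, 11088 had enough counts to be tested. Fast fibre genes together made 91287 to 133831 CPM in runners and 146254 to 152327 CPM in controls, as a check of the muscle label. Of 15 lymphocyte genes, 1 had enough counts to be tested, and the list summed to 46.4 to 110.0 CPM in runners and 79.7 to 124.4 CPM in controls, with Cd3g, Cd4, Cd8a and Gzma at 0 counts in all 7 mice. No row for DUX4 was analysed here, so no level of the transgene is given. Runner 4, the deepest library, stood apart from the other runners in its fibre genes, and values without it are given beside many of the results below. It was singled out after its values were seen. A gene that passes only without runner 4 therefore gains no support from that.

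Over all tested genes, runners lay slightly farther from controls than runners or controls lay from their own group, with overlapping ranges. This did not hold for every group of the series. The root mean square difference in log2 CPM between a runner and a control had a median of 0.836 over 12 pairs and ran from 0.744 to 0.938. Pairs of controls had a median of 0.801 and ran from 0.766 to 0.833, and pairs of runners had a median of 0.784 and ran from 0.763 to 0.833. The median was 0.827 among WT runners and 0.904 among FLExDUX4 controls, the second above that between runners and controls. Runner 2 was farthest from the controls, with a median of 0.905, and runner 4 nearest, with 0.754, which is below every pair of controls. The median was 0.859 from WT runners to the same controls and 0.820 from FLExDUX4 controls. Among the 500 most abundant genes the distance between runners and controls stood out more from the spread: its median was 0.485, against 0.273 among controls and 0.355 among runners. Both ranges overlapped there as well, since the nearest pair of a runner and a control was at 0.256 and the farthest pair of controls at 0.305.

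With edgeR's quasi-likelihood test and a Benjamini-Hochberg adjusted p under 0.05, 5 of 11088 genes differed between runners and controls, which is 0.0451% of those tested. Pdlim1, Tppp3, Myl12a and Lims1 rose in the runners and Tmem233 fell. All 5 are named by a rule, given with the methods. Without the adjustment, 1020 genes had p under 0.05, and 554.4 would if no gene differed. DESeq2 on the same counts called 71 genes, 56 higher and 15 lower, or 0.64%, all 5 among them. The number of calls depended on single mice: it was 88 (0.794%; 64 higher and 24 lower) without runner 4, which kept all 5, and between 0 and 3 without any other single mouse. Without control 1 no gene was called, and without control 2 the 1 gene called was none of the 5.

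**Figure D1:**
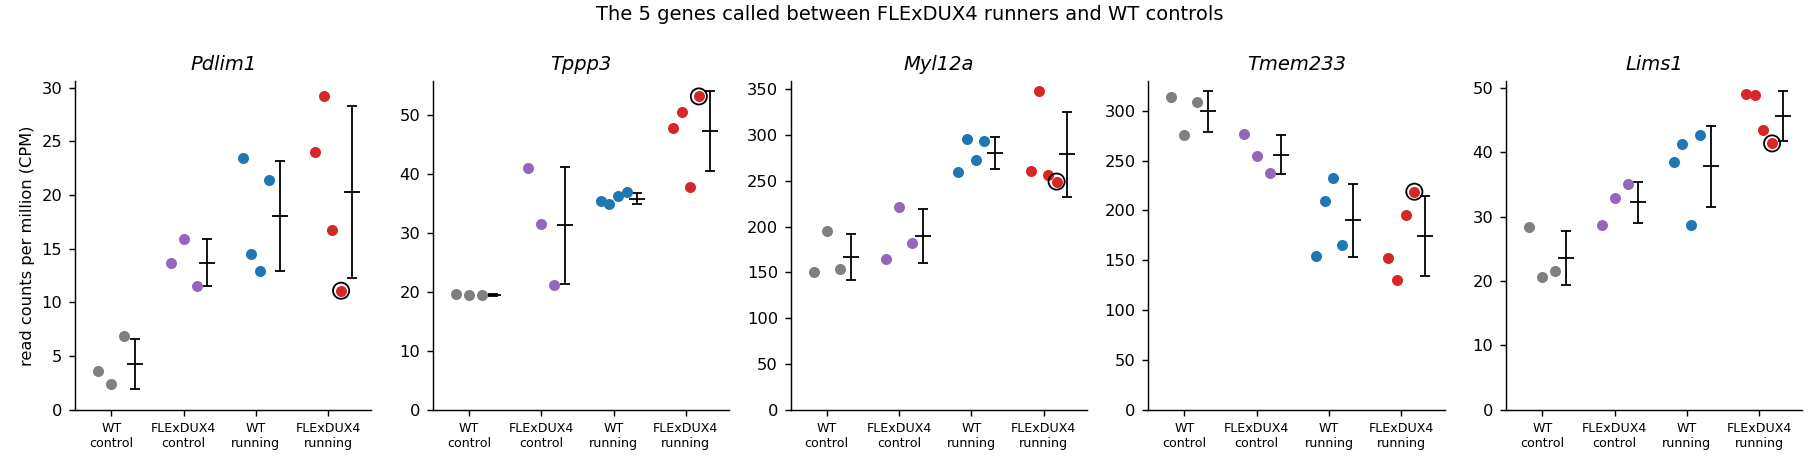
The 5 genes called between FLExDUX4 runners and WT controls, with CPM on a linear vertical axis from 0 and 1 point per mouse in each of the 4 groups. The horizontal marks with bars are the mean and SD, and the ringed point is runner 4. Runners (red) and controls (grey) do not overlap in any panel, and the FLExDUX4 controls (purple) overlap the WT controls in Myl12a and Tmem233.

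Pdlim1 had the largest fold change of the 5. It encodes a PDZ and LIM domain protein that binds alpha-actinin and ties it to the actin cytoskeleton, and it lies on chr19:40221173-40271842 (GRCm38). Its level was 24.0, 29.3, 16.8 and 11.1 CPM in runners 1 to 4 and 3.57, 2.37 and 6.90 CPM in the controls. Every runner was above every control, with runner 4 the lowest of the runners. The log2 fold change was 2.28 ± 0.36 (SE; adjusted p = 0.00216), a 4.85-fold rise. The same measure was 2.12 for WT runners and 1.71 for FLExDUX4 controls against these controls, so all 3 other groups sat above the WT controls. Runners of both genotypes differed by 0.16 ± 0.28. In the authors' deposited table the log2 fold change was 1.47, with no adjusted p. Leaving out control 1 or control 2 ended the call, with adjusted p = 0.067 and 0.059.

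Tppp3 encodes a tubulin-binding protein that is also known from cells of the tendon sheath, and it lies on chr8:105467493-105471526. Its 3 controls were nearly identical at 19.7, 19.4 and 19.5 CPM, and the runners had 47.9, 50.5, 37.8 and 53.2 CPM. Here runner 4 was the highest, not the lowest. The rise was 1.28 ± 0.21 on the log2 scale (adjusted p = 0.00216), or 2.43-fold. The authors' deposited table gives a log2 fold change of 1.13 with adjusted p = 3.03e-07. WT runners were 0.87 and FLExDUX4 controls 0.66 above the same controls. FLExDUX4 runners were above WT runners by 0.40 ± 0.18 and above FLExDUX4 controls by 0.62 ± 0.20, neither of which passed the test over all genes (adjusted p = 1.0 and 0.601). As for Pdlim1, the call was lost without control 1 or control 2 (adjusted p = 0.067 and 0.0543).

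Myl12a and Lims1 are both parts of the non-sarcomeric cytoskeleton. Myl12a, on chr17:70993656-71002878, encodes a regulatory light chain of non-muscle myosin. It had 261.2, 348.7, 256.2 and 249.2 CPM in the runners and 150.7, 195.3 and 153.7 CPM in the controls. Runner 2 stood above 3 runners that were close together, and the groups did not overlap. The gene rose by 0.74 ± 0.15 (adjusted p = 0.0433). WT runners showed 0.75 and FLExDUX4 controls 0.18. Myl12b, a near copy beside it on the chromosome, is named after its values were seen, and reads of the pair may be split with error. Myl12b had a log2 fold change of 0.19 ± 0.47 (adjusted p = 0.964).

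Lims1, on chr10:58323466-58424691, encodes PINCH, an adaptor of the integrin-linked kinase complex at cell adhesions. Its levels were 49.1, 48.9, 43.5 and 41.4 CPM in the runners and 28.3, 20.7 and 21.6 CPM in the controls. The runners formed a tight group above all controls, and the rise was 0.95 ± 0.19 (adjusted p = 0.0433). WT runners were 0.68 and FLExDUX4 controls 0.45 above the controls.

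Tmem233, on chr5:116038755-116083244, was the 1 gene that fell. It encodes a small transmembrane protein. The runners had 152.6, 129.9, 195.1 and 218.8 CPM and the controls 314.3, 275.7 and 308.5 CPM. Runner 4 came closest to the controls and still lay below all of them. The gene fell by 0.78 ± 0.16 on the log2 scale (adjusted p = 0.0433), and WT runners and FLExDUX4 controls showed -0.65 and -0.23. Under library sizes taken from the spike-in RNAs the fall no longer passed. The calls of Myl12a, Lims1 and Tmem233 held without runner 4 and were lost on leaving out any of the 6 other mice, with adjusted p between 0.059 and 0.384.

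The promoters of Pdlim1 and Myl12a are shown because these genes had the largest fold change and the highest level among the 4 that rose. Both were chosen after their values were seen. Each is the 250 bases before the RefSeq start, 5′ to 3′ on the gene's minus strand of GRCm38.p6, at chr19:40271617-40271866 for Pdlim1 and chr17:71002534-71002783 for Myl12a. The gene spans given above reach farther upstream than these RefSeq starts. All of the Myl12a window and most of the Pdlim1 window therefore lie inside those spans. Capitals mark matches to 3 motifs searched on both strands, none overlapping another in these windows. Sites of other factors are not marked, so lower-case letters do not show that such sites are absent.
Pdlim1: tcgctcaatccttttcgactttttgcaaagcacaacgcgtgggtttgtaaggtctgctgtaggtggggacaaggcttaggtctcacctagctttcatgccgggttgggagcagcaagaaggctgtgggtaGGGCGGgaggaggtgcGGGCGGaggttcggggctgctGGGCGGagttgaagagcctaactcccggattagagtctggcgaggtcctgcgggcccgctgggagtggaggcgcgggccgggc
Myl12a: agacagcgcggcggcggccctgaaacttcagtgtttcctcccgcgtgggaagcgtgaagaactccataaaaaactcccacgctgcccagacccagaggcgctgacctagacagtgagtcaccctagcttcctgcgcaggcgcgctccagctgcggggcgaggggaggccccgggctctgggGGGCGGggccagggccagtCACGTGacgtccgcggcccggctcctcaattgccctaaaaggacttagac
The motifs were the half-site of the oestrogen-related receptors (AAGGTCA, in 4.08% of 32851 windows of this length), the E-box (CACGTG, 6.02%) and the GC box (GGGCGG, 32.7%). Pdlim1 held GC boxes from bases 131, 147 and 168 of its window. Of these motifs, Myl12a held a GC box from base 182 and an E-box from base 201. Neither window held the AAGGTCA letters.

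**Figure D2:**
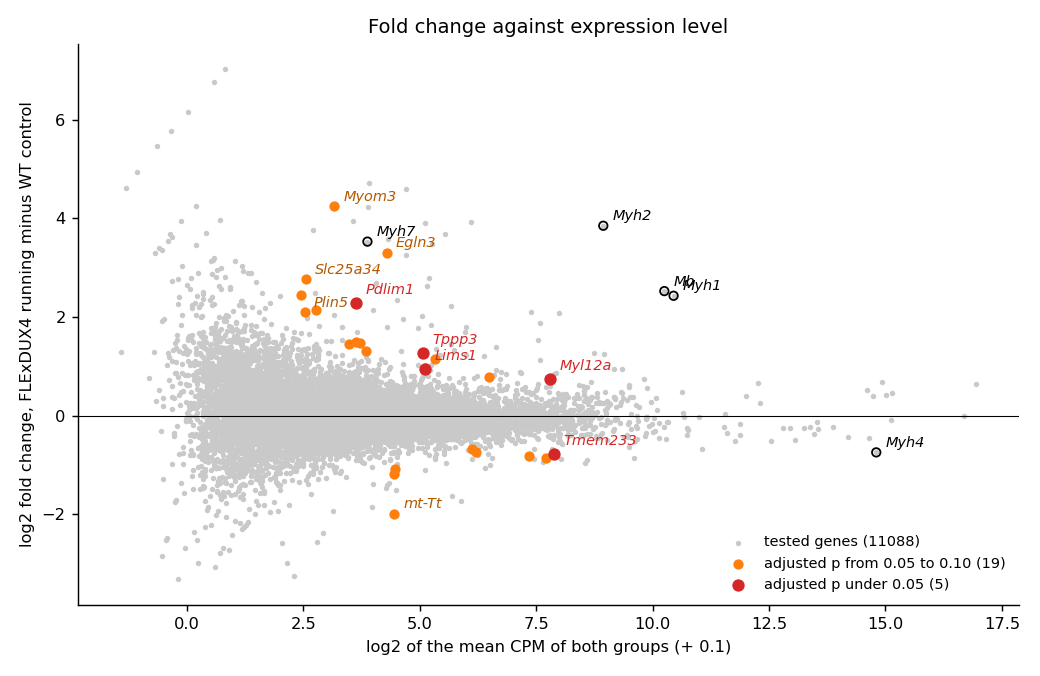
Each point is 1 of 11088 tested genes, with the log2 of its mean CPM over both groups on the horizontal axis and its log2 fold change, runners minus controls, on the vertical axis. The 5 called genes (red) and the 19 with an adjusted p from 0.05 to 0.10 (orange) are not those with the largest fold changes, and the myosins and myoglobin (rings) lie far from 0 without passing.

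At an adjusted p under 0.10, 24 genes passed, 16 higher and 8 lower, which is 0.216% of those tested, and the 19 further genes in it are named after their values were seen. Each of the 19 passed at 0.05 without runner 4 and with DESeq2. The gene lists held 5 of the 24: Myom3, Plin5, Egln3, Fgf1 and Slc25a34. Myom3, an M-band protein of slow and intermediate fibres, had 16.9, 28.2, 15.3 and 7.39 CPM in runners and 0.839, 1.29 and 0.300 CPM in controls. Its log2 fold change of 4.25 ± 0.82 was the largest of the 24 (adjusted p = 0.0957). Controls were close to the limit of detection there, so the size of the fold is loosely held. Egln3, a prolyl hydroxylase that marks the hypoxia factor HIF for breakdown, had 28.7, 59.9, 33.0 and 19.3 CPM against 2.73, 3.23 and 4.80 CPM. Even the lowest runner was far above the mean of the controls, 3.59 CPM (log2 fold change 3.31 ± 0.61, adjusted p = 0.0826).

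Several of the others handle fuels. Slc25a34, a mitochondrial carrier, was at 7.17, 20.4, 8.09 and 4.69 CPM in runners and 0.839, 1.51 and 2.10 CPM in controls (log2 fold change 2.76 ± 0.57, adjusted p = 0.0533). Plin5, which coats lipid droplets and docks them to mitochondria, was at 10.1, 15.6, 6.59 and 4.69 CPM against 1.26, 3.02 and 2.10 CPM (2.09 ± 0.50, adjusted p = 0.0826). Acss1, a mitochondrial enzyme that activates acetate, differed by 1.49 ± 0.34 (adjusted p = 0.0573). In none of these genes did the groups overlap. Fgf1, a growth factor, differed by 2.14 ± 0.47, Nrp1, a co-receptor of VEGF, by 1.15 ± 0.24, and Ndrg1, a hypoxia-responsive gene, by 1.47 ± 0.32 (adjusted p = 0.0573 for each). Dach2, a transcription factor known in denervated muscle, differed by 2.45 ± 0.54, with runner 4 at 2.70 CPM just above the highest control at 2.40 CPM.

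The remaining genes higher at this threshold were Plbd1 (1.44), Tmem65, a mitochondrial membrane protein (0.78), and Aspn, a small matrix proteoglycan (1.31). Among the 7 further lower genes, Mat2a, which makes the methyl donor S-adenosylmethionine, had 133.0, 134.5, 156.1 and 170.3 CPM in runners and 360.9, 181.5 and 263.5 CPM in controls, a log2 fold change of -0.85 ± 0.18 (adjusted p = 0.0573). Controls varied there more than runners did. Ky, a muscle protein whose loss causes kyphoscoliosis in mice, differed by -0.83 ± 0.18, and Palld, an actin-bundling scaffold, by -0.74 ± 0.17. Mlec, an endoplasmic reticulum lectin, was tight in both groups, at 50.8 to 56.2 CPM in runners and 83.5 to 87.0 CPM in controls (-0.68 ± 0.16, adjusted p = 0.0736). The cyclin Ccnl1 differed by -1.08, the mitochondrial tRNA gene mt-Tt by -1.99 and Myhas, an antisense transcript of the fast myosin cluster, by -1.18. Whether the counting used strand is not given in the sources used here, so reads of Myhas and of the myosins opposite it cannot be told apart.

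**Figure D3:**
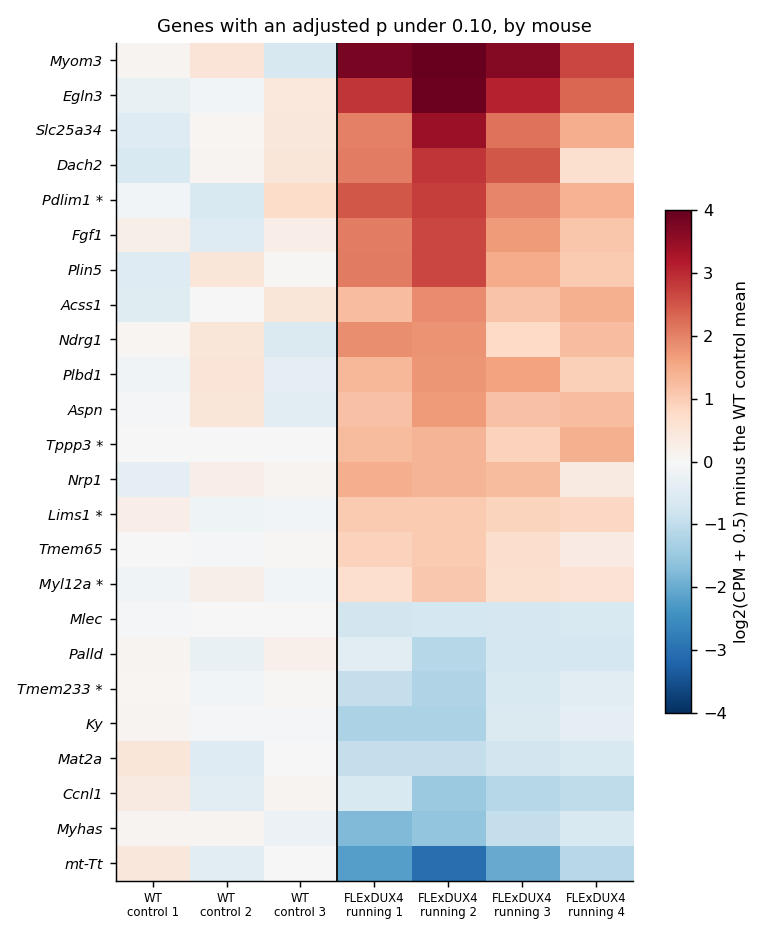
Rows are the 24 genes with an adjusted p under 0.10 (asterisk, under 0.05) and columns the 7 mice. Colour is log2(CPM + 0.5) minus the mean of the 3 controls, from -4 to 4, with larger values drawn at the limit. Runner 2 is the most intense column in most of the genes that are higher, and runner 4 is paler than the other runners in Dach2, Nrp1 and Tmem65 but not in Tppp3.

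Among the contractile genes, the share of Myh4, the fastest myosin, in the counts of the 4 adult myosin heavy chains was 83.6, 71.0, 88.4 and 96.5% in runners 1 to 4 and 98.3, 98.9 and 98.7% in the controls. All runners were lower, runner 4 by the least. The means were 84.9 ± 10.7% (SD, n = 4) and 98.6 ± 0.256% (SD, n = 3), a difference of -13.7 percentage points. A 2-sided exact permutation test gave p = 0.0571, the smallest that 4 against 3 mice can give, and 0.0571 after adjustment over the 3 shares tested. Myh1 took up most of the difference, with 11.7, 18.8, 9.02 and 2.81% in runners and 0.980 to 1.45% in controls. Myh2 had 4.47, 9.94, 2.54 and 0.663% against 0.206, 0.156 and 0.158%. Every runner was above every control for both. Myh7, the slow myosin, stayed under 0.25% in all 7 mice, and in runner 4 it lay within the range of the controls.

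**Figure D4:**
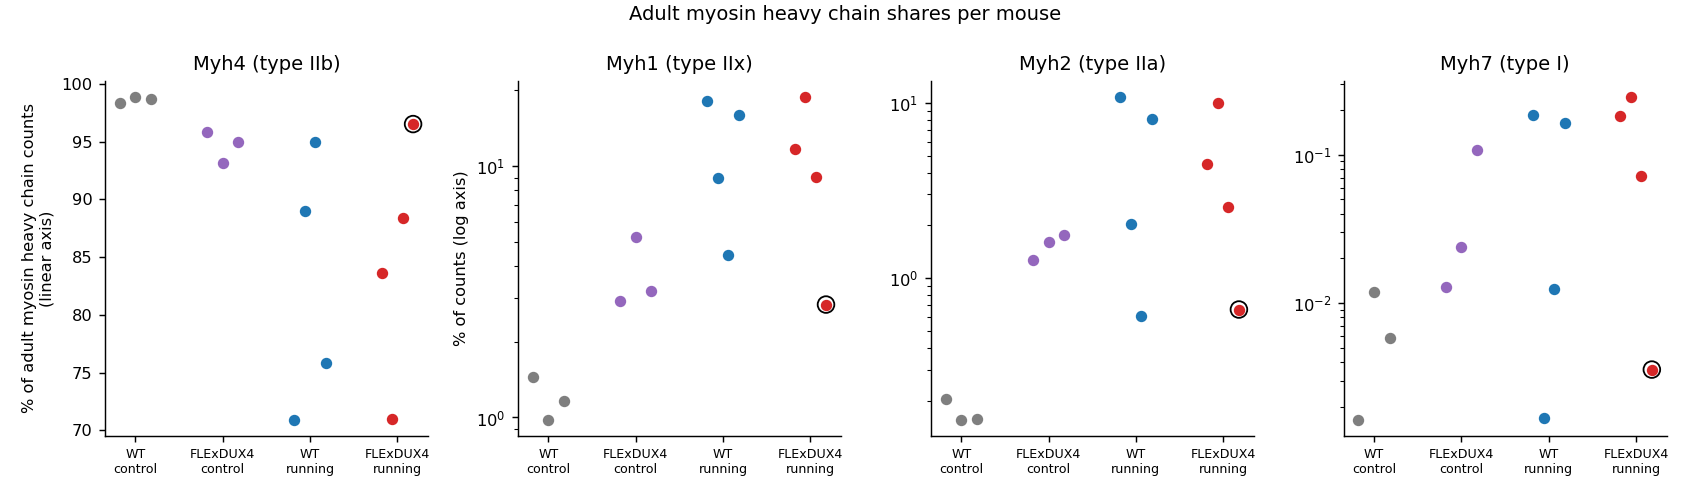
Share of each adult myosin heavy chain in the counts of all 4, in percent, with 1 point per mouse. The Myh4 panel has a linear axis and the other 3 have log axes. Runners 1 to 3 hold 71.0 to 88.4% Myh4, runner 4 (ringed) 96.5%, and the 3 controls at least 98.3%.

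In CPM, Myh2 was at 1092.8, 1641.5, 751.6 and 185.5 in runners and 79.3, 53.9 and 57.0 in controls, a log2 fold change of 3.85 ± 0.96. Runner 2 was highest and runner 4 far below the other runners, and the gene did not pass (adjusted p = 0.229). Myh1 (2.43 ± 0.53, adjusted p = 0.189) and the oxygen store myoglobin, Mb (2.53 ± 0.62, adjusted p = 0.223), likewise did not overlap between groups and did not pass. Mb had 1995.3, 3805.9, 1847.5 and 649.7 CPM against 355.0, 388.2 and 337.1 CPM. Myh4 itself had 20451.8, 11723.2, 26154.3 and 27004.3 CPM against 37825.9, 34049.8 and 35504.1 CPM, a log2 fold change of -0.75 ± 0.28 (adjusted p = 0.400). Without runner 4, Myh1 and Mb passed, with adjusted p = 0.0209 and 0.0495, and Myh2 did not, with 0.0699. On leaving out another single mouse, the edgeR adjusted p rose as high as 0.483 for Myh1, 0.548 for Mb and 0.542 for Myh2. DESeq2 called Myh1, Myh2 and Mb with all mice in, at adjusted p = 0.000356, 0.000483 and 0.000799.

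The slow fibre list (Myh7, its light chains, slow troponins and partners) had 14 tested members of 15. None was called, 13 had a fold change above 0, and the median log2 fold change was 3.50, against 0.0037 over all tested genes. In 5 members (Ankrd2, Atp2a2, Csrp3, Myom3 and Myoz2) all runners were above all controls. Such a separation was found in 4.91% of all tested genes in this direction and in 5.11% in the other. These shares are to be set beside the separated members of every list below. With the median of all genes near 0, about as many of them lay above 0 as below. Myoz2, a Z-disc protein that binds calcineurin, is one example, named like the others of its list after its values were seen, with 78.9, 126.2, 42.6 and 11.9 CPM against 3.36, 6.25 and 3.00 CPM (3.90 ± 0.98, adjusted p = 0.235, 0.055 without runner 4 and 0.000305 with DESeq2). The defining slow genes were not raised in runner 4: Myl2, a ventricular and slow light chain, was at 63.4, 105.2, 29.4 and 0.853 CPM in runners and 2.94, 2.16 and 0.60 CPM in controls, and Tnni1, slow troponin I, was at 0 in runner 4. The summed level of the list was 77.1 to 1158.8 CPM in runners and 53.1 to 69.9 CPM in controls. The same median was 3.08 in WT runners and 2.42 in FLExDUX4 controls against these controls. DESeq2 called 7 of the 14, all higher.

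The fast fibre and calcium list had mostly negative fold changes, Myh1 being the exception. Of 16 tested members, 15 were below 0 and the median was -0.36. In 9 of them, Myh4, Pvalb, Casq1, Actn3, Tnnc2, Tnni2, Tnnt3, Tpm1 and Mybpc2, all runners lay below all controls. None was called. Pvalb, the calcium buffer of fast fibres, had 6237.2, 5318.0, 7297.8 and 9416.3 CPM against 9526.9, 10079.5 and 10100.2 CPM (-0.49 ± 0.20, adjusted p = 0.439). Runner 4 almost touched the controls. Genes of the sarcoplasmic reticulum and the triad, where excitation releases calcium, had a median of -0.19 that turned positive under the scaling given next, with 16 of 21 below 0 and 7 without overlap below. Casq2, the slow calsequestrin, was an exception at 1.71 ± 0.51 with overlapping groups (adjusted p = 0.252, 0.00557 without runner 4 and 0.0177 with DESeq2). Jph2, named after its values were seen, was lower without overlap at -0.55 ± 0.15 (adjusted p = 0.169, 0.0356 without runner 4 and 0.0372 with DESeq2). With spike-in library sizes the median of all genes moved to 0.35, and the fast list was then at -0.01 and the reticulum list at 0.17, both below that median.

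Genes of oxidative phosphorylation were higher together by small amounts. All 77 nuclear-encoded subunits of the respiratory complexes and the ATP synthase had fold changes above 0, from 0.01 to 0.69 on the log2 scale with a median of 0.34. Their summed level was 25243 to 36981 CPM in runners and 23301 to 25332 CPM in controls, so that the lowest runner was inside the range of the controls. In 16 of 77 the groups did not overlap, all higher, against 4.91% of all tested genes, and none of the 77 was called. Cox7a1, the muscle form of a complex IV subunit, was at 521.2, 640.0, 519.3 and 349.2 CPM against 334.9, 294.2 and 316.0 CPM (0.69 ± 0.18, adjusted p = 0.161). It was the 1 gene of the list that DESeq2 called. Without runner 4, 6 passed with edgeR: Cox7a1, Cox5b, Uqcrq, Atp5e, Atp5g1 and Atp5g3. The list's median was 0.46 in WT runners and 0.12 in FLExDUX4 controls against the same controls.

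Transcripts of the mitochondrial genome took 32.6, 39.8, 33.6 and 26.6% of gene counts in the runners and 20.9, 26.4 and 24.7% in the controls. Runner 4 was barely above control 2, the highest control. The means were 33.2 ± 5.40% (SD, n = 4) and 24.0 ± 2.82% (SD, n = 3), a difference of 9.11 percentage points (2-sided exact permutation p = 0.0571, the smallest possible). All 10 tested members of the mitochondrially encoded list, which holds no tRNA genes such as mt-Tt, had fold changes above 0, with a median of 0.51. mt-Co1, the catalytic subunit of complex IV, was at 6241.2, 7353.1, 6018.8 and 4501.1 CPM against 3382.8, 4283.0 and 3775.1 CPM (0.66 ± 0.17, adjusted p = 0.161). It was the only member of the 10 whose groups did not overlap, and it passed without runner 4 (adjusted p = 0.0159) and with DESeq2 (0.0319). The spike-in share of all counts was lower in the runners, at 1.04 ± 0.0603%, than in the controls, at 1.40 ± 0.124% (exact permutation p = 0.0571). Its mean was 1.06% in WT runners and 1.12% in FLExDUX4 controls, so the WT controls had the highest mean of all groups. A lower spike-in share goes with more endogenous RNA counted per unit of spike-in, and its part in the result was not tested.

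Genes that take up and burn fatty acids had mostly positive fold changes. Of 27 tested genes, 26 were above 0 with a median of 0.56, and 12 had all runners above all controls, against 4.91% of all genes. None passed. Cd36, the fatty acid transporter of the cell surface, was at 167.5, 202.1, 131.9 and 76.8 CPM against 55.8, 60.3 and 49.2 CPM (1.38 ± 0.33, adjusted p = 0.197). Slc25a20, which carries acylcarnitines into mitochondria, was at 56.4, 71.9, 54.2 and 33.7 CPM against 28.7, 27.4 and 33.6 CPM (0.85 ± 0.21, adjusted p = 0.107). Its runner 4 lay just above control 3. Both were called without runner 4 (adjusted p = 0.00095 and 0.00623) and by DESeq2. Fabp3, the fatty acid carrier of heart and oxidative muscle, differed by 1.53 ± 0.51 (adjusted p = 0.368). The list's median was 0.80 in WT runners and 0.38 in FLExDUX4 controls. Lipid droplet genes had a median of 0.52 (13 of 15 above 0, 4 separated upward). The TCA cycle had 0.27 (22 of 24 above 0, 3 separated upward, against 4.91% of all tested genes).

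Genes of glycolysis and glycogen had a median of -0.23, which became 0.12 with spike-in library sizes, below the 0.35 of all genes on that scale. On the main scale 22 of 27 were below 0, and 14 had all runners below all controls, against 5.11% of all tested genes. Gbe1, the glycogen branching enzyme, was the 1 list member separated upward. Gpd1, which links glycolysis to glycerol, was at 172.6, 121.1, 212.5 and 202.2 CPM against 330.9, 240.5 and 274.9 CPM (-0.67 ± 0.17, adjusted p = 0.161). Pgm2, a phosphoglucomutase, had 504.5, 415.3, 629.0 and 699.9 CPM against 1017.2, 753.3 and 868.3 CPM (-0.65 ± 0.18, adjusted p = 0.189). Neither passed with all mice in. Both did without runner 4, and neither did with DESeq2 (adjusted p = 0.0526 for Gpd1 and 0.0656 for Pgm2). Ldhb, the lactate dehydrogenase of oxidative tissue, which is not on that list, was at 85.7, 155.2, 83.3 and 22.5 CPM against 10.3, 3.02 and 6.60 CPM (3.69 ± 0.81, adjusted p = 0.189). It passed with DESeq2 (adjusted p = 3.96e-05) and without runner 4 (0.0383).

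Regulators of these programmes were about evenly split. The list of 30 had a median of 0.09, which was -0.04 without control 1, with 16 above 0 and 14 below. Ppargc1a, the coactivator PGC-1alpha, was at 78.5, 73.3, 54.5 and 57.9 CPM against 49.1, 49.8 and 45.3 CPM. The groups did not overlap, but the fold change of 0.46 ± 0.19 did not pass (adjusted p = 0.414). Ppara, the fatty acid receptor, had 16.5, 15.6, 10.8 and 7.11 CPM against 4.20, 4.10 and 4.80 CPM (1.51 ± 0.38, adjusted p = 0.122) and was called by DESeq2 and without runner 4. Vgll2, a cofactor of TEAD factors in muscle, differed by 1.45 ± 0.42 (adjusted p = 0.278) and was likewise called by DESeq2 (0.0367) and without runner 4 (0.00623). Prkag3, the AMPK subunit of fast glycolytic fibres, had 38.4, 48.9, 70.1 and 107.3 CPM against 109.7, 142.9 and 109.2 CPM (-0.86 ± 0.30, adjusted p = 0.365). Runner 4 nearly met the controls. Prkag3 passed without runner 4 (adjusted p = 0.00323) and not with DESeq2 (0.0701).

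Clock genes had a median of -0.29, which became 0.06 with spike-in library sizes, below the 0.35 of all genes. Of 18 tested, 8 had all runners below all controls (Per1, Per2, Per3, Nr1d2, Dbp, Tef, Bhlhe41 and Rora) and none the reverse. Over all tested genes these shares were 5.11% and 4.91%. Nr1d2, the repressor REV-ERB beta, had 30.1, 30.6, 33.6 and 43.9 CPM against 57.7, 56.7 and 56.7 CPM (-0.72 ± 0.20, adjusted p = 0.189, 0.0425 without runner 4 and 0.092 with DESeq2). Tef, a clock output factor, had 44.0, 51.3, 64.1 and 61.7 CPM against 91.9, 89.0 and 109.8 CPM (-0.81 ± 0.20, adjusted p = 0.123) and was called by DESeq2. The list's median was -0.43 in WT runners and close to 0 in FLExDUX4 controls against the same controls. The time of day at which muscle was taken is not given in the sources used here, and its part in the result was not tested.

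**Figure D5:**
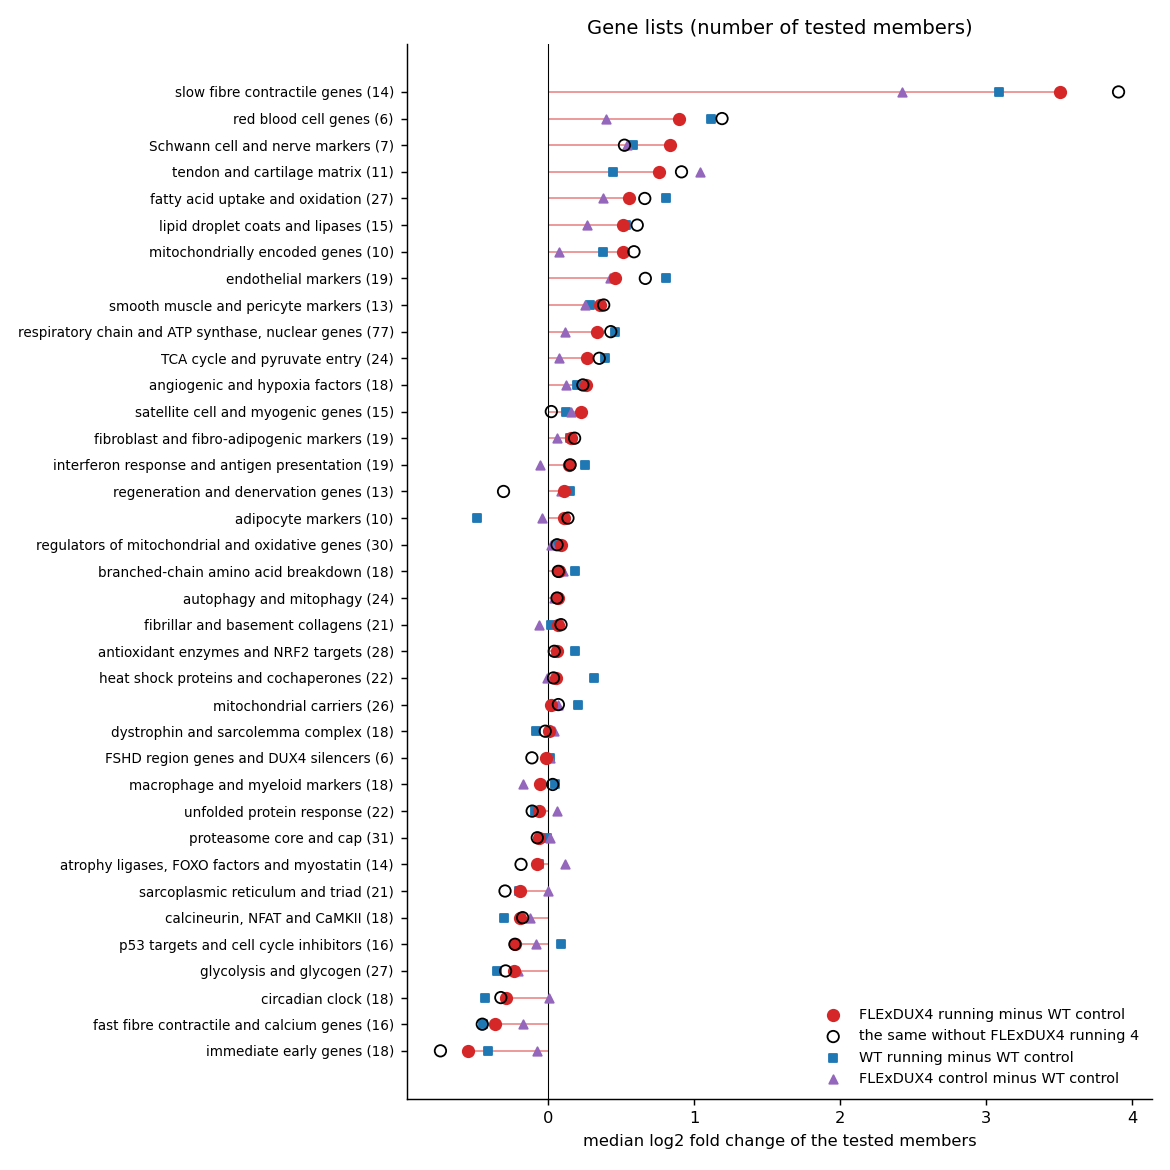
Median log2 fold change of the tested members of each gene list with at least 3 tested members, against WT controls: FLExDUX4 runners (red), the same without runner 4 (open circles), WT runners (blue squares) and FLExDUX4 controls (purple triangles). All 3 contrasts share the WT controls. The slow fibre list is far to the right in all of them, at 3.50, 3.90, 3.08 and 2.42.

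Markers of other cell types of muscle were partly higher in the runners, and in bulk tissue more cells of a type and more RNA per cell cannot be told apart. Endothelial markers had a median of 0.46, with 15 of 19 above 0 and 3 separated upward (Cav1, Kdr and Tie1), against 4.91% of all genes. Kdr, the main VEGF receptor, was at 53.7, 66.8, 43.8 and 37.8 CPM against 24.8, 26.1 and 23.4 CPM (1.02 ± 0.26, adjusted p = 0.161, 0.0333 without runner 4 and 0.0237 with DESeq2). Pecam1, a defining endothelial gene, was at 44.2, 47.5, 42.9 and 17.9 CPM against 20.1, 27.8 and 26.1 CPM, so that runner 4 was below all controls. Pecam1 passed without runner 4 (adjusted p = 0.04) and not with DESeq2 (0.338). The summed endothelial level was 446.0 to 630.3 CPM in runners and 418.8 to 481.1 CPM in controls. Smooth muscle and pericyte markers had a median of 0.35 (12 of 13 above 0), with sums of 1165.8 to 1256.3 against 1020.4 to 1160.2 CPM.

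The summed level of tendon and cartilage matrix genes was 168.6 to 255.6 CPM in runners and 95.1 to 135.1 CPM in controls, with no overlap. Of 11 tested members 9 were above 0, the median was 0.76, and none was called. Chad, a cartilage and tendon matrix protein, was at 10.7, 19.6, 18.9 and 7.82 CPM against 4.83, 1.29 and 4.20 CPM (2.03 ± 0.51, adjusted p = 0.169, 0.03 without runner 4 and 0.00608 with DESeq2), and Thbs4, a tendon thrombospondin, overlapped between groups. The list's median was 0.44 in WT runners and 1.04 in FLExDUX4 controls, and its part in the result for Tppp3, which was highest in runner 4 where Chad was lowest among the runners, was not tested. Schwann cell and nerve markers were also separated in sum, at 63.5 to 81.0 CPM in runners and 40.9 to 46.8 CPM in controls, with all 7 tested members above 0. Collagens had a median of 0.07, negative without runner 2, control 2 or control 3 (down to -0.07). Fibroblast markers had a median of 0.16, with 16 of 19 above 0 and none called. Of these markers 5 were separated upward (Clec3b, Fbln1, Ly6a, Pi16 and Serping1) and none downward. Upward separation was found in 4.91% of all tested genes. Col1a1 differed by 0.21 ± 0.21 (adjusted p = 0.861). Macrophage markers had no separated member in either direction and a median of -0.05, which was positive with spike-in library sizes (0.28), with only the 2 groups fitted, without runner 4 and without control 1. Cd68, a macrophage gene, was at 0.599 to 2.33 CPM in runners and 1.89 to 3.88 CPM in controls.

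Red blood cell genes had a median of 0.90 over 6 tested members, with none separated. Hba-a2, an alpha globin, was at 150.1, 178.8, 139.7 and 49.5 CPM against 64.4, 84.5 and 54.0 CPM (0.93 ± 0.37, adjusted p = 0.461). Runners 1 to 3 were above the controls and runner 4 below them. Without runner 4 Hba-a2 passed, with adjusted p = 0.000696, and with DESeq2 on all mice it did not (0.239). The near-identical copies Hba-a1 and Hba-a2 cannot be counted apart with certainty. Muscle stem cell genes were not separated in any of 15 tested members, and Pax7 itself was at 0.300 to 5.97 CPM in runners and 0.839 to 4.80 CPM in controls.

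Of 7 mouse genes on a list of DUX4 responders, 2 could be tested. Sord, sorbitol dehydrogenase, was at 61.3, 58.0, 51.5 and 43.4 CPM in runners and 32.1, 37.5 and 41.7 CPM in controls, without overlap (0.53 ± 0.19, adjusted p = 0.314). It was 0.16 above the controls in WT runners and 0.14 in FLExDUX4 controls, and FLExDUX4 runners differed from WT runners by 0.37 ± 0.17. Ilvbl differed by -0.18 ± 0.40 with overlapping groups, and by 0.15 with spike-in library sizes. The other 5 had few or no counts: Serpinb6c had 11 in the 4 runners together, 10 of them in runner 1, and 0 in controls, and Trim36 had 11 against 0, 9 of them in runner 4. WT runners, which have no transgene, also had 11 counts of Trim36. Wfdc3 had 1 against 0, Slc15a2 12 against 6, and Slc34a2 none. For Slc15a2, WT runners had 30 counts and FLExDUX4 controls 12.

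No gene was shown to lie at another distance from the WT controls in FLExDUX4 runners than in WT runners or FLExDUX4 controls. FLExDUX4 runners and WT runners differed in 0 of 11088 genes (0%) with edgeR, and DESeq2 and limma-voom also called 0. An unadjusted p under 0.05 was found in 350 genes, fewer than the 554.4 that would have it if no gene differed. Among the 24 genes with an adjusted p under 0.10, the difference between the runners of the 2 genotypes was at most 0.57 on the log2 scale, in Ccnl1. The 5 smallest p of that comparison belonged to Timp4, Commd2, Mcf2l, Tnfaip2 and 9430073C21Rik. Timp4, an inhibitor of matrix proteases, was at 5.23 to 11.3 CPM in FLExDUX4 runners, 8.40 to 14.1 CPM in WT controls and 11.5 to 29.6 CPM in WT runners. FLExDUX4 runners were thus -0.78 ± 0.33 from the controls and -1.39 ± 0.30 from WT runners, and neither passed (adjusted p = 0.435 and 0.568). Commd2, a member of a family involved in endosomal sorting, was at 20.2 to 27.6, 14.7 to 15.7 and 9.74 to 15.2 CPM in the same order. Its difference from WT runners was 0.95 ± 0.22 (adjusted p = 0.710), and it is the 1 gene called between the running groups in the authors' deposited table, with a log2 fold change of 0.84 and adjusted p = 0.0430.

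Mcf2l, a guanine nucleotide exchange factor, differed from WT runners by -1.80 ± 0.44 and Tnfaip2 by -0.70 ± 0.17 (adjusted p = 0.710 for both), while their differences from the WT controls were -0.62 and -0.14, the second with its sign turned under spike-in scaling. 9430073C21Rik was at 1.20 to 4.07 CPM in FLExDUX4 runners and 1.26 to 3.02 CPM in WT controls, and had no count in 3 of the 4 WT runners. FLExDUX4 runners and FLExDUX4 controls differed in 0 genes (0%) with edgeR, DESeq2 or limma-voom. With edgeR 736 had an unadjusted p under 0.05, and 554.4 would if no gene differed. When only these 2 groups were fitted, 6 were called. Myl12a (0.56 ± 0.15) and Tmem233 (-0.55 ± 0.16) had adjusted p = 0.517 there, and Egln3 differed by 2.28 ± 0.54 with the same adjusted p. A p that misses the threshold at 3 or 4 mice a group does not show that the groups were alike.

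The authors' deposited table called 84 genes between FLExDUX4 runners and WT controls, 50 higher and 34 lower, among 3866 rows with an adjusted p. It shared 4 of the 5 genes called with edgeR, and 43 genes with the 71 that DESeq2 called here, which is 51.2% of its own calls and 60.6% of those 71.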

How the data were processed

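QuantSeq 3′ FWD libraries of triceps total RNA were sequenced with single reads, per the labels' protocols. The authors deposited raw read counts per gene for 14 mice; the submitters' processing notes list the builds GRCm38 and GRCh38, DESeq2, the aligner STAR (2.5.3a), the counter featureCounts (1.6.2) and the trimmer cutadapt (1.16). The table also holds the authors' log2 fold changes and adjusted p-values, per the file headers. The sources used here state no use of molecular identifiers, so PCR copies may be counted.

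Here, 99 spike-in rows were set aside and genes passing filterByExpr (minimum count 10) in edgeR 4.0.16 (R 4.3.3) were fitted with TMM factors and a robust quasi-likelihood model over all 14 libraries and 4 groups (10 residual degrees of freedom, biological coefficient of variation 0.288). P-values were adjusted by Benjamini-Hochberg over all tested genes. DESeq2 1.42.0 and limma-voom 3.58.1 were alternatives. Distances used log2 CPM with a prior count of 2. The fit was also run on simulated counts that varied less between mice than these data, which does not show how the fit performs here. Exact permutation tests used scipy 1.17.1. Coordinates came from GENCODE M21 by gene identifier, with matching starts for 86 of 93 named genes, and promoters from RefSeq, whose table had entries for Pdlim1, Myl12a, Tmem233 and Lims1 of the 5 called genes. Tppp3 was the other.

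Named genes were: called genes with separated groups and at least 5 CPM in the higher group (the 15 highest and 10 lowest fold changes), up to 4 called members of each of 39 lists, 14 genes always considered (Ppargc1a, Myh7, Myh2, Myh1, Myh4, Mb, Pax7, Cdkn1a, Col1a1, Cd68, Sord, Ilvbl, Pim3 and Chad), and the 5 smallest p against WT runners; others are named after their values were seen. The members and the lists were chosen with earlier results of these data known. Lists are described by counts and medians without a test. Replicates are separate mice. No replicate pair matched within sampling noise. Leaving out each mouse, other scalings and filters, and a fit on only the groups compared were tried.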

Additional observations from a re-analysis of the deposited data

Results flagged for a closer look

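Myl12a was at 348.7 CPM in FLExDUX4 runner 2, whose gap to the next runner took up 0.880 of the range of the 4 runners. That exceeds Dixon's 95% critical value for 4 samples. Without this mouse the log2 fold change against WT controls was 0.62 with an adjusted p of 0.194, so the call for Myl12a was lost. 9430073C21Rik was at 4.07 CPM in FLExDUX4 runner 1, a gap of 0.857 of the range, at a level of 1.20 to 1.61 CPM in the other 3 runners. At such levels 1 CPM is only a few reads. The rule was applied to 27 sets of values, and chance flags about 1 in 20.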

How the results depend on the processing

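The count of genes called between FLExDUX4 runners and WT controls (5) was the same with RLE or upper quartile factors and without mitochondrial genes. It was 71 with DESeq2, 2 with limma-voom, 345 (344 higher, 1 lower) with spike-in library sizes, 118 without the low-count filter, 18 with a filter of 1 CPM in 3 libraries, 39 without the robust estimate, 40 (26 higher, 14 lower) with only the 2 groups fitted, and 24 at an adjusted p under 0.10; leaving out 1 mouse gave 0 to 88. Pdlim1 and Tppp3 kept their calls without runners 1, 2, 3 or 4 or control 3. With limma-voom only Tppp3 of the 5 passed. In the main fit the lists held 711 distinct genes of the 11088 tested, and they were chosen with earlier results known. List members called (0) became 5 at 0.10, 24 with DESeq2, 1 with limma-voom and 117 with spike-in sizes. They were 48 without the filter, 2 with the 1 CPM filter, 12 without the robust estimate and 14 with only the 2 groups. Leaving out 1 mouse gave 0 to 34. The counts over all genes given above are to be set beside these. Both filters and the fit on 2 groups changed the number of genes tested. The count of 0 against WT runners became 2 without the filter, and that against FLExDUX4 controls 24 without the filter and 6 with only those 2 groups. The median distance from runners to controls (0.836) was 0.920 with the 1 CPM filter, 1.04 with a prior count of 0.5 and 0.485 over the 500 most abundant genes. Sign changes, none in a called gene, were Ilvbl 0.15 and Tnfaip2 0.21 with spike-in sizes and Myl12b -0.21 with limma-voom. On leaving out 1 mouse, Col1a1 ran from -0.00612 to 0.51, Pax7 from -0.34 to 1.21, Ilvbl from -0.42 to 0.0601, 9430073C21Rik from -0.45 to 0.60 and Myl12b from -0.11 to 0.51. The cause of these changes was not tested. Among named genes, 1382 alternative values kept direction and side of the threshold, 242 passed it, 27 lost it and 12 changed sign. No paired analysis was possible because the labels do not link single mice of different groups. With 3 controls, the exact test cannot reach 0.05, and fold changes of genes near 1 CPM rest on few reads.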

Other observations

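Several stress and turnover programmes differed little between FLExDUX4 runners and WT controls, and no member of them was called. The median log2 fold change was 0.05 over 22 heat shock genes, -0.06 over 22 genes of the unfolded protein response, 0.06 over 28 antioxidant genes, 0.07 over 24 autophagy genes and -0.06 over 31 proteasome genes, of which 24 were below 0. The heat shock median turned negative without runner 2 (-0.01) or control 2 (-0.03). With spike-in library sizes these medians were 0.40, 0.29, 0.41, 0.42 and 0.29, around the 0.35 of all genes. Within the heat shock list, Hspb7, a small heat shock protein of striated muscle named after its values were seen, stood apart, at 60.9, 99.3, 35.7 and 39.0 CPM in runners and 12.8, 20.9 and 15.3 CPM in controls (1.84 ± 0.40, adjusted p = 0.163 with edgeR, 0.04 without runner 4 and 8.77e-06 with DESeq2). All runners, runner 4 included, were above all controls.

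Cdkn1a, the cell cycle inhibitor p21, was at 14.7, 34.1, 24.6 and 30.4 CPM in runners and 11.5, 15.7 and 8.70 CPM in controls (1.10 ± 0.38, adjusted p = 0.334), with runner 1 inside the range of the controls, while the list of p53 targets and cell cycle inhibitors had a median of -0.22 (0.12 with spike-in sizes). Pim3, a kinase, differed by 0.58 ± 0.25 (adjusted p = 0.459), less than the 1.29 of FLExDUX4 controls against the same mice, and FLExDUX4 runners were at -0.71 ± 0.24 from FLExDUX4 controls (adjusted p = 0.601). Immediate early genes had a median of -0.55 with no separated member, and controls varied widely: Fos, named after its values were seen, was at 23.5, 6.03 and 43.8 CPM in controls and 4.79 to 9.38 CPM in runners. Ampd1, the AMP deaminase of fast muscle, and Srebf1, a lipogenic factor, both named after their values were seen, were lower without overlap, at -0.67 ± 0.17 and -0.84 ± 0.22 (adjusted p = 0.161 and 0.169, and 0.0111 and 0.0468 without runner 4). With DESeq2 neither passed (adjusted p = 0.0555 and 0.0732).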
